A study of Rattus norvegicus with 20 samples.

Results

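Nuclear genes of mitochondrial oxidative phosphorylation were described in rat dorsal root ganglia after sciatic nerve injury. Members were all probe sets that the array's probe table assigns to a single gene whose current symbol begins with Nduf, Uqcr, Cyc1, Cycs, Cox4, Cox5, Cox6, Cox7, Cox8 or Atp5, or is one of Sdha to Sdhd. The rule found 101 of the 8740 probe sets tested, which stand for 55 of 4736 named genes, and the probe set with the highest mean over all arrays was used for each gene. Complex I had 27 genes, among them the assembly factor Ndufaf3, complex II had 1, complex III had 4, complex IV had 13 and complex V had 10. The complex IV genes include the pseudogene Cox6c-ps1 and Cox7a2l, and the complex V genes include the inhibitor Atp5if1. Cycs, Cox7a1 and Cox7a2 were not analysed here.

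Oxidative phosphorylation is carried out by 5 protein complexes of the inner mitochondrial membrane. Complexes I and II take electrons from NADH and succinate, complex III passes them to cytochrome c, complex IV (cytochrome c oxidase) hands them to oxygen, and the proton gradient made on the way drives ATP synthesis by complex V. Sensory neurons, which keep up long axons and steady ion pumping, depend heavily on this supply. A few subunits of complexes I, III, IV and V are encoded in mitochondrial DNA, and all others, including every member here, in the nucleus.

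Ganglia came from the operated side of rats that had chronic constriction injury (CCI, loose ligatures around the sciatic nerve), the Seltzer operation, or sham surgery. Each total RNA sample was read on 1 Affymetrix rat array. The CCI groups held 3 arrays at 14 days and 3 at 21 days after surgery. The Seltzer groups held 2 arrays at 14 days, 3 at 21 days and 2 at 50 days, and the sham groups likewise held 2, 3 and 2. The Seltzer operation is known as a partial ligation of the nerve, while the labels call it transection. Strain, age, sex and ganglion level are not given, and nothing in the labels ties a replicate to an animal of its own. The p-values therefore measure only the spread between these samples, which may be technical. The labelled tissue was checked on 11 sensory neuron markers, of which 9 to 11 were above background on every array of a group.

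The background level of an array was set at the 95th percentile of the absolute values of its negative intensities, and a gene was taken as above background there when its intensity was higher. By this measure 13 of the 55 genes were above background on all 20 arrays, 46 on at least 10 and 4 on none. The background level lay between 169 and 326 on 17 of the arrays, and at 499 on CCI 21-day replicate 1. On the Seltzer 50-day arrays it was 766 (replicate 1) and 599 (replicate 2), and 17 and 22 of the genes were above it there, against 34 to 50 on the other arrays. The GAPDH control's ratio of 3′ to middle signal was 8.89 and 5.10 on those arrays, against 2.84 and 2.85 in sham at 50 days and 0.998 to 2.04 at the earlier days. Results at 50 days are therefore kept apart from those at 14 and 21 days.

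**Figure D1:**
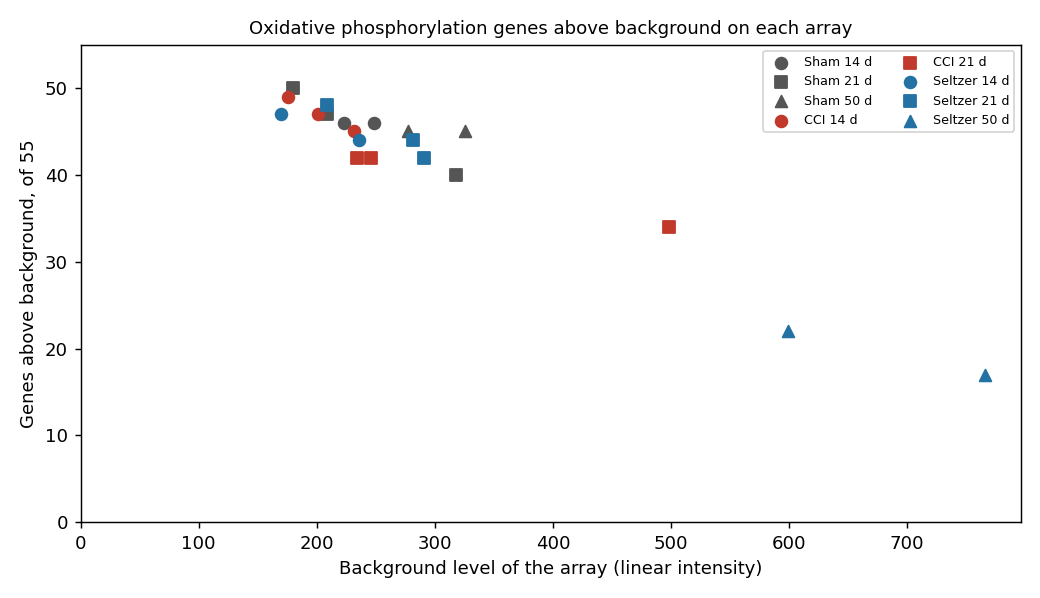
Number of the 55 genes above background on each array (vertical axis) against the background level of the array in linear intensity units (horizontal axis), with colour for the surgery and shape for the day. The Seltzer 50-day arrays sit at the far right with 17 and 22 genes above background, and CCI 21-day replicate 1 lies next to them with 34.

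Most members did not pass the test at 14 or 21 days. Changes are differences of group means of log2(intensity + 16), with negative intensities set to 0, their standard error (SE) comes from limma fitted across all 20 arrays, and adjusted p-values are Benjamini-Hochberg values over the 8740 probe sets, with a threshold of 0.05. In CCI at 14 days, 2 of the 55 genes were higher than in sham (Cox6c and Cox7b) and 1 was lower (Ndufb6), where 1.35% of all probe sets were called higher and 1.43% lower. No member passed in CCI at 21 days (0.927% of all probe sets called), in Seltzer at 14 days (0.206%) or in Seltzer at 21 days (0.378%). At an unadjusted p under 0.05 the same limma fit had 1 member higher and 12 lower in CCI at 21 days, beside 6.93% and 5.32% of all probe sets. It had 0 and 4 in Seltzer at 14 days, beside 1.98% and 1.8%, and 2 and 4 in Seltzer at 21 days, beside 3.73% and 2.87%. Both models were set against the same sham arrays of their day, so their comparisons are not independent. In bulk tissue, fewer cells of a type and less RNA per cell cannot be told apart.

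Cox6c (Entrez 54322), a small nuclear-encoded subunit of cytochrome c oxidase, had the largest change of any member at 14 or 21 days among those called. Its intensity in CCI at 14 days was 3407, 3546 and 3253. In sham at 14 days it was 358 and 219. The CCI and sham arrays lay far apart, and the change was 3.53 (SE 0.20, adjusted p = 3.29e-07, limma). No fold is given, since 1 of the 2 sham arrays was below background.

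The Cox6c level on the remaining arrays differed between days. Seltzer at 14 days was at 183 and 168, below background and below both sham arrays of that day. Sham at 21 days stood at 1371, 1844 and 2057, CCI at 21 days at 1942, 2172 and 2182, and Seltzer at 21 days at 2407, 3017 and 2288. CCI overlapped sham at 21 days, with a change of 0.27 (adjusted p = 0.519), while Seltzer lay above it, with 0.55 (adjusted p = 0.413). Sham at 50 days read 4000.5 and 3936, and Seltzer at 50 days 2421 and 1939.5. The 4 sham and Seltzer arrays of 14 days were thus below all other 16 arrays, and the CCI arrays of 14 days lay within the range of the later ones.

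Few probe sets behaved this way. Of all probe sets, 62 (0.709%) had the 4 sham and Seltzer 14-day arrays below the other 16, and 144 (1.65%) had them above. Ranked by the gap between these sets of arrays, Cox6c was at place 7 of 8740, with a gap of 1.89 on the log2 scale, behind probe sets for Nrn1, Gnb1, Marcks and Abcd3 and an unnamed one. Against the 21-day sham arrays, the Cox6c change in CCI at 14 days was 0.97 (adjusted p = 0.0229, with 7.62e-09 to 1 over all alternatives). The cause of this split of the 14-day arrays was not tested.

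A second Cox6c probe set did not follow the first. It was above background on 3 of the 20 arrays only, and its CCI change at 14 days was -2.81 (adjusted p = 0.218). Averaging both probe sets gave 0.36, which did not pass the threshold. The pseudogene Cox6c-ps1, named after its values were seen, was above background on none of the arrays, and its change was -0.96 (adjusted p = 0.305). Signal of a near-identical copy on the Cox6c probes cannot be told apart from that of Cox6c.

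Cox7b (Entrez 303393), another small subunit of cytochrome c oxidase, was above background on all 20 arrays. It read 1358, 1257 and 1255 in CCI at 14 days and 630.0 and 598 in sham. The groups did not overlap, and Cox7b rose 2.10-fold, a log2 change of 1.05 (SE 0.24, adjusted p = 0.0329, limma). Seltzer at 14 days was at 601 and 493, close to sham. At 21 days sham stood at 939, 1649.7 and 1926, CCI at 1010.3, 1147 and 1124, and Seltzer at 1146, 1249 and 1746, all overlapping. As for Cox6c, the sham and Seltzer arrays of 14 days were the lowest of all 20, the next being 782 in Seltzer at 50 days. The call was lost when any 1 of the 5 CCI and sham 14-day arrays, or either sham 50-day array, was left out, with changes of 1.01 to 1.09. It was also lost with the replicate number as a block (0.95), with median centring and with the dimmest probe sets left out. Against the 21-day sham arrays the change was -0.16.

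Ndufb6 (Entrez 297990), an accessory subunit of the membrane arm of complex I, differed the other way. Sham at 14 days read 2018 and 1872, and CCI 1173, 1117 and 1009. The groups did not overlap, and Ndufb6 was 1.77-fold lower in CCI, a log2 change of -0.82 (SE 0.17, adjusted p = 0.0223, limma). Seltzer at 14 days was also below sham, at 1016 and 1255, with a change of -0.77 that did not pass (SE 0.19, adjusted p = 0.322). At 21 days sham stood at 891, 993 and 1189, CCI at 1149, 1063 and 1040.0, and Seltzer at 1001, 1291 and 1444. Here the sham arrays of 14 days were the highest of all 20, ahead of sham at 50 days with 1836 and 1565. Against 21-day sham the CCI change at 14 days was 0.11. The Ndufb6 call was lost with median centring and with the dimmest probe sets left out. The second Ndufb6 probe set, above background on 14 arrays, gave 0.19 for CCI at 14 days (adjusted p = 1), and the call was also lost without CCI replicate 2 or 3 or either sham array of that day, with changes of -0.87 to -0.76.

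**Figure D2:**
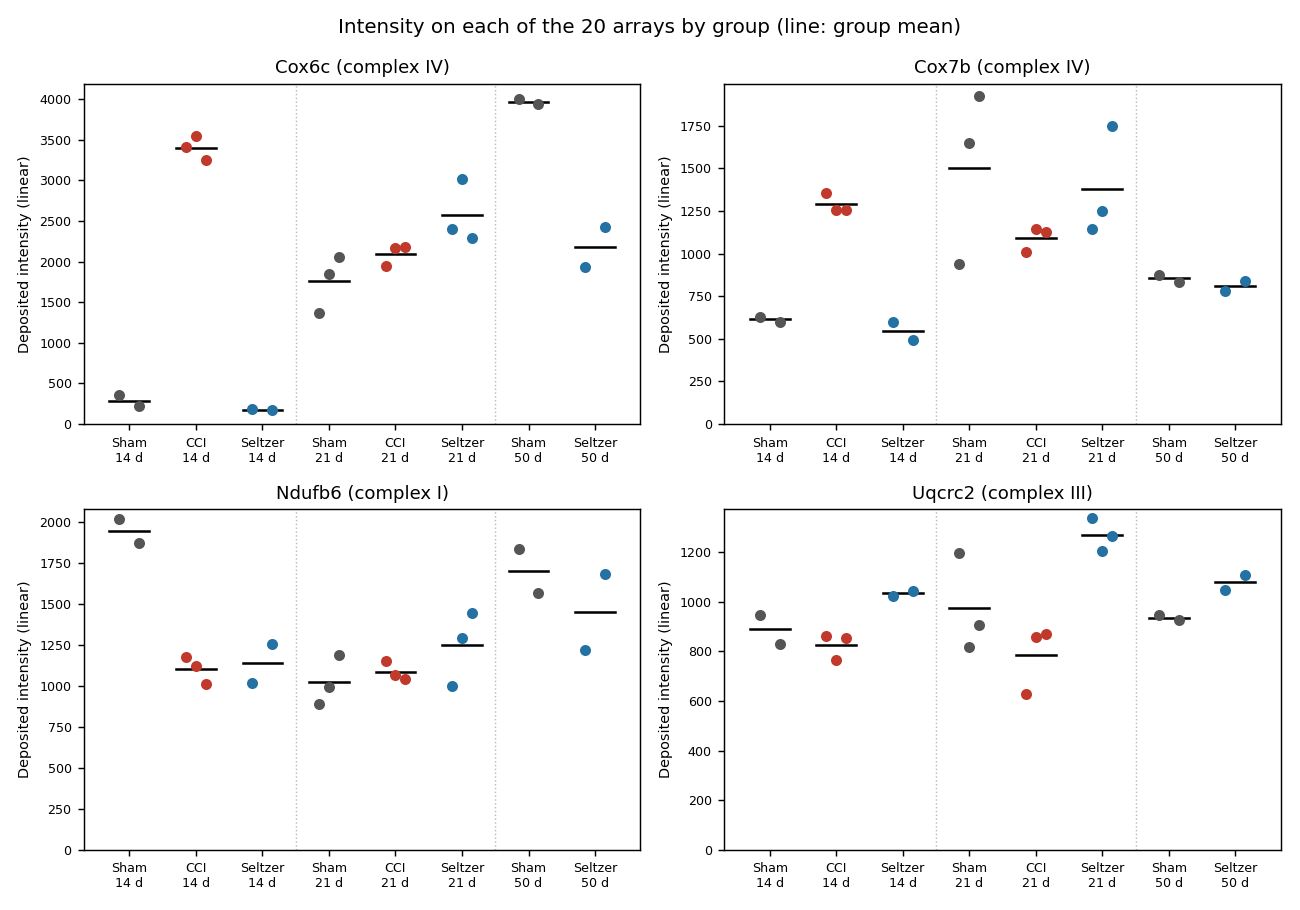
Deposited linear intensity (vertical axis, from 0) on each of the 20 arrays by group (horizontal axis) for Cox6c, Cox7b, Ndufb6 and Uqcrc2, with grey for sham, red for CCI and blue for Seltzer, and a line at each group mean. Cox6c and Cox7b were lowest in sham and Seltzer at 14 days, Ndufb6 was highest in sham at 14 days, and Uqcrc2 was higher on the Seltzer than on the CCI arrays of the same day.

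Promoter sequences were read from RefSeq (GRCr8), which held 46 of the 55 members. Cox7b and Ndufb6 are shown because they moved in opposite directions at 14 days. The stretches are the 150 bases before the gene's start, at chrX:75148886-75149035 (plus strand) for Cox7b and chr5:60206153-60206302 (minus strand) for Ndufb6, written 5′ to 3′.
Cox7b: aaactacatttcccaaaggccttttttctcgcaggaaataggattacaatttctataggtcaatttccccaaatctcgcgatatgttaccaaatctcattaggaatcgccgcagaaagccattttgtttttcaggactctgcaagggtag
Ndufb6: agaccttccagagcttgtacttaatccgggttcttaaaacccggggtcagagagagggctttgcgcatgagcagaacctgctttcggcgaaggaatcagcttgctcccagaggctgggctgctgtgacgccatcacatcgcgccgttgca
Capitals mark letters of the motif of NRF1 (GCGCA, any base, then GCGC) or of GABP (CCGGAAGT), factors known for controlling respiratory chain genes, searched on both strands. Neither stretch holds either of them. In the windows from 250 bases before the start, 6 of the 46 members (13%) held the NRF1 letters, against 4.71% of the 27457 promoters in the table. The GABP letters were found in 4 members (8.7%) against 4.01%. The promoters in the table are not limited to genes on the array or active in ganglia, so they are not a matched background. The members with NRF1 letters were Atp5f1c, Atp5po, Ndufa5, Ndufs6, Ndufv3 and Sdha, and those with GABP letters were Atp5f1a, Cox5b, Cox8a and Ndufs1. A match is a run of letters and says nothing of binding in these ganglia.

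The complex I genes lay below sham more often than above it. Of 27 genes, 19 had a change below 0 in CCI at 14 days, 20 in CCI at 21 days, 23 in Seltzer at 14 days and 17 in Seltzer at 21 days. Their median changes were -0.22, -0.24, -0.28 and -0.11. With single arrays left out these medians ran from -0.32 to -0.17, -0.34 to -0.17, -0.44 to -0.22 and -0.20 to -0.01, the last value of Seltzer at 21 days being that without its replicate 1. Other settings moved the complex I medians beyond these ranges. In CCI at 14 days the median was -0.10 with median centring, -0.11 with means over probe sets and -0.12 against 21-day sham. It was -0.41 with centring and -0.35 with quantile normalization in CCI at 21 days, and -0.21 against 21-day sham in Seltzer at 14 days. Among the 1712 probe sets above background on at least 10 arrays, 48.1%, 47.9%, 48.9% and 45.3% were below 0, and their medians were 0.02, 0.03, 0.01 and 0.03. In CCI 13 of the 27 genes were below sham at both days and 1 at neither, and in Seltzer 15 and 2. Over all 55 members these counts were 23 and 6 in CCI and 21 and 7 in Seltzer. The share over all probe sets was not computed, so they do not tell whether the lean was kept between days. Over all alternatives the counts of complex I genes below 0 on single days ran from 16 to 20, 18 to 24, 19 to 24 and 14 to 20, in the order given first. Apart from Ndufb6 in CCI at 14 days, none of these genes passed the test, so the lean is a description of many small differences.

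**Figure D3:**
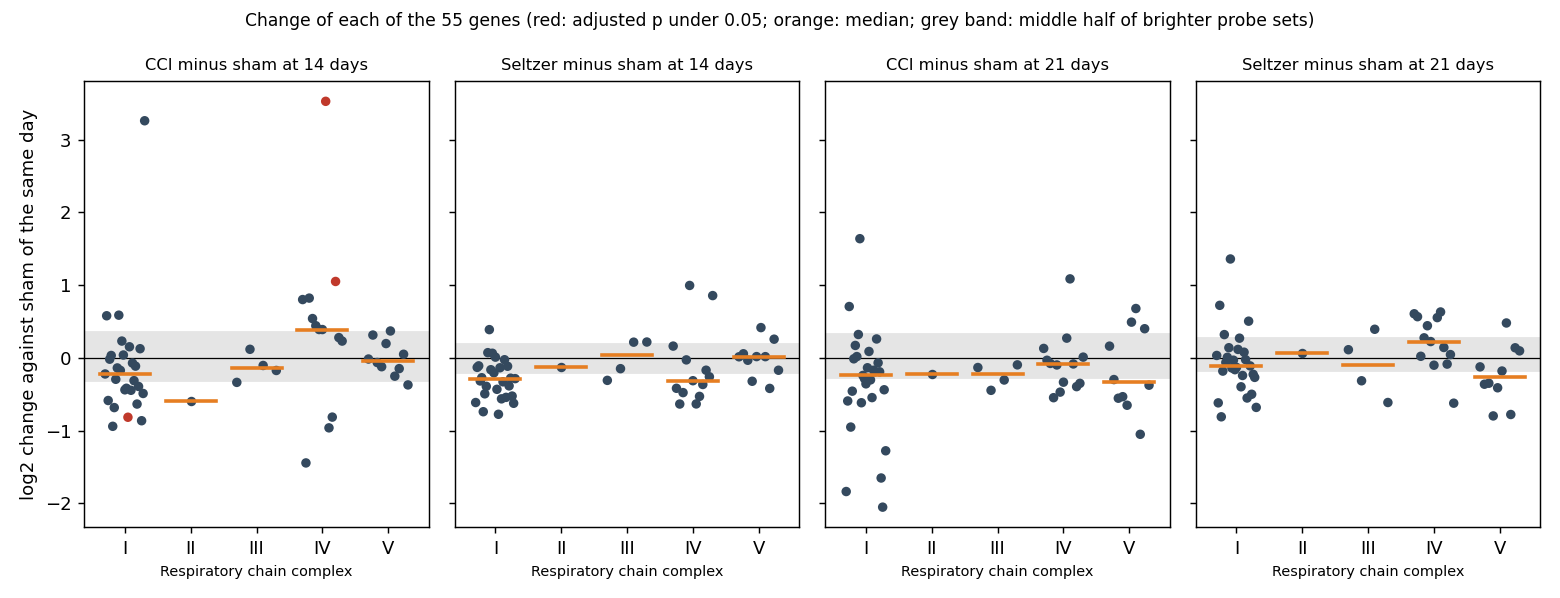
Log2 change against sham of the same day (vertical axis) for each of the 55 genes by complex (horizontal axis), with 1 panel per comparison. Points are genes, red points passed the threshold, orange lines are medians, and the grey band spans the middle of the changes of the 1712 brighter probe sets, between their quartiles. The complex I medians lie below 0 in all 4 panels, and the complex IV medians lie at 0.39 in CCI and -0.31 in Seltzer at 14 days.

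Among complex I genes the lowest adjusted p at 21 days belonged to Ndufa5 (Entrez 25488), an accessory subunit of the matrix arm. Sham at 21 days read 556, 395 and 489, CCI 256, 244 and 216, and Seltzer 340.0, 253 and 215. Every sham array lay above every injured array of that day. None of the CCI arrays was above background, and the change was -0.95 (SE 0.21, adjusted p = 0.0664), which missed the threshold. In Seltzer it was -0.81 (SE 0.21, adjusted p = 0.217). The CCI change passed under 8 of 33 alternatives, for example with the Seltzer 50-day arrays out of the fit (adjusted p = 0.014, with 0.0113 to 0.237 over all alternatives). At 14 days sham read 245 and 293 and CCI 266, 288 and 241, which overlapped. Seltzer at 14 days was below both, at 198 and 227, with a change of -0.32 (adjusted p = 1).

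Other complex I genes showed no shared course. Ndufa4 is in the complex I counts by its symbol, though it is now counted with cytochrome c oxidase. It read 657 and 781 in sham at 14 days and 1105, 1044 and 1088 in CCI, a change of 0.58 (adjusted p = 0.289). At 21 days it read 1165, 1281 and 1429.8 in sham and 664, 948 and 972 in CCI, a change of -0.59 (adjusted p = 0.271). The sign thus turned between the days without passing at either. Ndufab1, the mitochondrial acyl carrier protein, and Ndufb8, a membrane arm subunit, overlapped between CCI and sham at 21 days, with Ndufab1 at 1098 to 2209.9 in sham and 1209.8 to 2212 in CCI. The 4 genes named next had wide changes with large errors. Ndufs8, an iron-sulphur subunit of the matrix arm, read -68.4, 90.0 and 96.8 in CCI at 21 days, all below background, against 421, 141 and 182 in sham, a change of -2.05 with an SE of 0.71 (adjusted p = 0.288). Ndufb1 was at -82.7 on sham 21-day replicate 1 and at 755 and 844 on the other sham arrays, and its change in CCI at 21 days was 1.64 with an SE of 1.12. Ndufa3 was at -57.3 on CCI 21-day replicate 1, and its change there was -1.84 with an SE of 0.85. Ndufv3, named after its values were seen, read 338, 347 and 359 in CCI at 14 days against -149 and 74.3 in sham, a change of 3.26 with an SE of 1.33 (adjusted p = 0.349).

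Sdha (Entrez 157074), the flavoprotein of succinate dehydrogenase, was the complex II gene measured. Its intensity was 838 and 637 in sham at 14 days, 504, 525 and 413 in CCI and 730.4 and 612 in Seltzer. CCI lay below sham without overlap, with a change of -0.60 (SE 0.20, adjusted p = 0.19). Sham at 21 days stood at 424, 523 and 431, CCI at 327, 479.8 and 380.1, and Seltzer at 445, 567 and 434, all overlapping. Against the 21-day sham arrays the CCI change at 14 days was 0.06.

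Ndufa5 and Sdha are shown for the NRF1 letters in their promoters. The 150 bases before the start lie at chr4:53971236-53971385 (minus strand) for Ndufa5 and chr1:30764403-30764552 (plus strand) for Sdha in GRCr8, from RefSeq.
Ndufa5: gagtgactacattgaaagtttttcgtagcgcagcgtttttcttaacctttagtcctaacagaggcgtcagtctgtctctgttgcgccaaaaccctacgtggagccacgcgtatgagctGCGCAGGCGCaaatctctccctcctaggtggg
Sdha: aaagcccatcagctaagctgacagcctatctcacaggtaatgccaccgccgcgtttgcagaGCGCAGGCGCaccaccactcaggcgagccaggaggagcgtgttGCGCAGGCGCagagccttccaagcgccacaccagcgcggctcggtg
Capitals mark the NRF1 letters, which begin 32 bases before the start in Ndufa5, and 89 and 46 bases before it in Sdha. The whole Sdha window of 250 bases before to 50 after the start held 3 such runs, the most of any member.

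The 4 complex III genes had medians of -0.14 and -0.22 in CCI at 14 and 21 days and of 0.03 and -0.10 in Seltzer. Uqcr11, a small subunit, read 864, 954 and 1055 in sham at 21 days, 647, 792 and 661 in CCI, and 796, 810.2 and 694 in Seltzer. All injured arrays of that day lay below all sham arrays, and the changes were -0.45 in CCI (SE 0.11, adjusted p = 0.0901) and -0.31 in Seltzer (adjusted p = 0.473). Without CCI 21-day replicate 2 the CCI change was -0.53 and passed (adjusted p = 0.0409, with 0.0409 to 0.667 over all alternatives). Cyc1, the cytochrome c1 haem protein, and Uqcrfs1, the Rieske iron-sulphur protein, did not pass at either day in either model, with changes between -0.61 and 0.22.

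Uqcrc2 (Entrez 293448), a core protein of complex III, was the member besides Cox6c that differed between the models. In CCI it read 861, 764 and 853 at 14 days and 627, 856 and 868 at 21 days. In Seltzer it read 1024 and 1044 at 14 days and 1337, 1206 and 1264 at 21 days. Each Seltzer array was above each CCI array, and the difference, as the mean of 14 and 21 days, was -0.51 for CCI minus Seltzer (SE 0.10, adjusted p = 0.0324, limma). Sham lay between or across them, at 948 and 830.4 and at 1197, 819 and 905. The call was lost in 9 of 20 fits that left out 1 array (differences of -0.55 to -0.43), among them each CCI array of 14 days, each Seltzer array of 14 days, Seltzer 21-day replicates 1 and 3, and each sham array of 50 days. The replicate block, with -0.52, also lost it. The number of members called in this comparison fell as well with quantile normalization, median centring, the dimmest probe sets left out or only the groups compared. It rose with array weights.

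Cox6c was 1.94 higher on the log2 scale in CCI than in Seltzer over the same days (SE 0.13, adjusted p = 5.54e-06), the difference lying at 14 days by the values above. The share of all probe sets called in that comparison was 0.481% higher in CCI and 0.446% lower. The CCI effect was tested between days as well, and 2 members passed, both lower at 21 than at 14 days, against 0.881% of all probe sets. The differences of effects were -3.25 for Cox6c (SE 0.26, adjusted p = 1.37e-05) and -1.45 for Cox7b (SE 0.32, adjusted p = 0.0396). The Cox7b call was lost in 17 of 20 fits that left out 1 array, with -1.75 to -1.24. Averaged over both days, Cox6c was the only member called in CCI (1.90, SE 0.13, adjusted p = 3.14e-06), where 1.19% of all probe sets were called higher. None was called in Seltzer (0.297% of all probe sets), where 1 was higher and 5 lower at an unadjusted p under 0.05 in limma, beside 2.67% and 2.11% of all probe sets. No member passed for the Seltzer effect between the days (0.149% of all probe sets called).

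In complex IV, the 13 genes had medians of 0.39 and -0.08 in CCI at 14 and 21 days, and of -0.31 and 0.23 in Seltzer. At 14 days 10 of 13 were above sham in CCI and 10 of 13 below it in Seltzer, against the same sham arrays. Those sham arrays differed among the brightest genes, with replicates 1 and 2 at 3758 and 1980 for Cox6a1 and at 3619 and 2537 for Cox8a. The CCI arrays of that day lay on both sides of replicate 1, at 3881, 3251 and 4061 for Cox6a1 and at 3550, 3557 and 3952 for Cox8a. How far the complex IV counts and medians rest on 1 sham array was not tested. The 13 include Cox8b and Cox6c-ps1, which were above background on no array, and 10 were above it on at least 10 arrays. The shares of brighter probe sets below 0 are those given above with complex I. The 3 genes with the highest mean intensity, Cox4i1, Cox6a1 and Cox8a, did not pass in any of the 4 comparisons. Cox4i1, the common form of subunit 4, read 4676 and 1448 in sham at 14 days and 4584, 3890.0 and 5296 in CCI, a change of 0.80 with an SE of 0.43 (adjusted p = 0.582). Cox6a1, the common form of subunit 6a, had changes from -0.10 to 0.44, and Cox8a, the common form of subunit 8, from -0.35 to 0.28 over the 4 comparisons, with adjusted p of 0.563 or more. On Seltzer 21-day replicates 1 and 3 Cox4i1 stood at 9505 and 10353, against 4826 on replicate 2.

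The other forms of these subunits were above background on fewer arrays. Cox4i2, a form known from lung, had 12 arrays above background. It read 483 and 444 in sham and 145, 189 and 149.7 in CCI at 14 days, with no overlap and a change of -1.44 (SE 0.77, adjusted p = 0.582). Cox6a2 and Cox8b are the heart and skeletal muscle forms. Cox8b was above background on no array, and Cox6a2 on 10, with 216 and 154 in sham at 14 days, 168, 240.2 and 359 in CCI, and 446 and 323 in Seltzer. The changes of Cox6a2 ran from -0.47 to 1.00 over the 4 comparisons, and none passed.

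Skeletal muscle genes moved with the groups, and their levels are given for that reason. The summed intensity of 20 muscle markers, Cox6a2 and Cox8b among them, was 6887 to 7920 in sham at 14 days, 13277 to 15192 in CCI and 9231 to 9268 in Seltzer. At 21 days it was 6983 to 7733 in sham, 2677 to 5094 in CCI and 5041 to 5457 in Seltzer. In CCI at 14 days 2 of the 20 were called higher (Acta1 and Eno3), and at 21 days 3 were called lower (Acta1, Ckm and Pvalb). Pvalb did not follow Acta1 closely in sham, where it read 519 to 561 at 21 days and 457 and 482 at 50 days. Acta1 read 1383 to 1803 and then 312 and 262 on those arrays. Whether the Pvalb signal came from muscle was not tested. In the groups of 14 and 21 days, 6 to 13 of the 20 were above background on no array. The sum of 7 macrophage markers was 4258 to 5311 in CCI at 14 days against 1778 to 2143 in sham, and 3509 to 4491 at 21 days against 1141 to 1678. In Seltzer it was 3360 to 4358 and 2726 to 3092. Of these 7 markers, 4 were above background on no array in the CCI and Seltzer groups of 14 and 21 days, and 5 in the sham groups. Those called higher were Ctss and Cd74 in CCI at both days and in Seltzer at 21 days, and Lyz2 in CCI at 21 days. The part of these cells in the results on oxidative phosphorylation genes was not tested.

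The 10 complex V genes had medians of -0.04 and -0.34 in CCI at 14 and 21 days and of 0.02 and -0.26 in Seltzer. Atp5f1d, the delta subunit of the central stalk, read 1574, 977 and 1058 in sham at 21 days, 585, 922 and 978 in CCI, and 751, 617 and 651 in Seltzer. Seltzer lay below sham without overlap, a change of -0.80 (SE 0.20, adjusted p = 0.168). CCI overlapped sham by 1 array, with -0.53 (adjusted p = 0.321). Atp5f1b, the catalytic beta subunit, was at 6002, 4217 and 3727 in sham and 2962, 4602 and 3721 in CCI at 21 days, a change of -0.30 (adjusted p = 0.567). Atp5po, which helps to hold the catalytic head in place, had changes of -0.37 at both days in CCI (adjusted p = 0.707 and 0.48). Atp5if1, the natural inhibitor of ATP hydrolysis by the enzyme, had changes of 0.37 and 0.49 in CCI and 0.42 and -0.18 in Seltzer, none past the threshold.

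Counted by overlap, 19 of the 55 genes had all CCI arrays below all sham arrays at 14 days and 9 had them above, beside 23.3% and 18.1% of all probe sets. At 21 days the counts were 14 below and 2 above, beside 7.68% and 6.57%. In Seltzer, 22 lay below and 6 above at 14 days, beside 17.7% and 17.9%, and 9 lay below and 2 above at 21 days, beside 5.46% and 4.97%. The medians over the 55 genes were -0.10 and -0.22 in CCI and -0.20 and -0.03 in Seltzer. The median of all probe sets was 0.00 in each comparison, but dim probe sets set to 0 on all arrays compared have no change by construction. With the dimmest 33.3% of probe sets left out, the median of the rest was -0.095 and 0.139 in CCI at 14 and 21 days. In Seltzer it was -0.024 and 0.024.

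**Figure D4:**
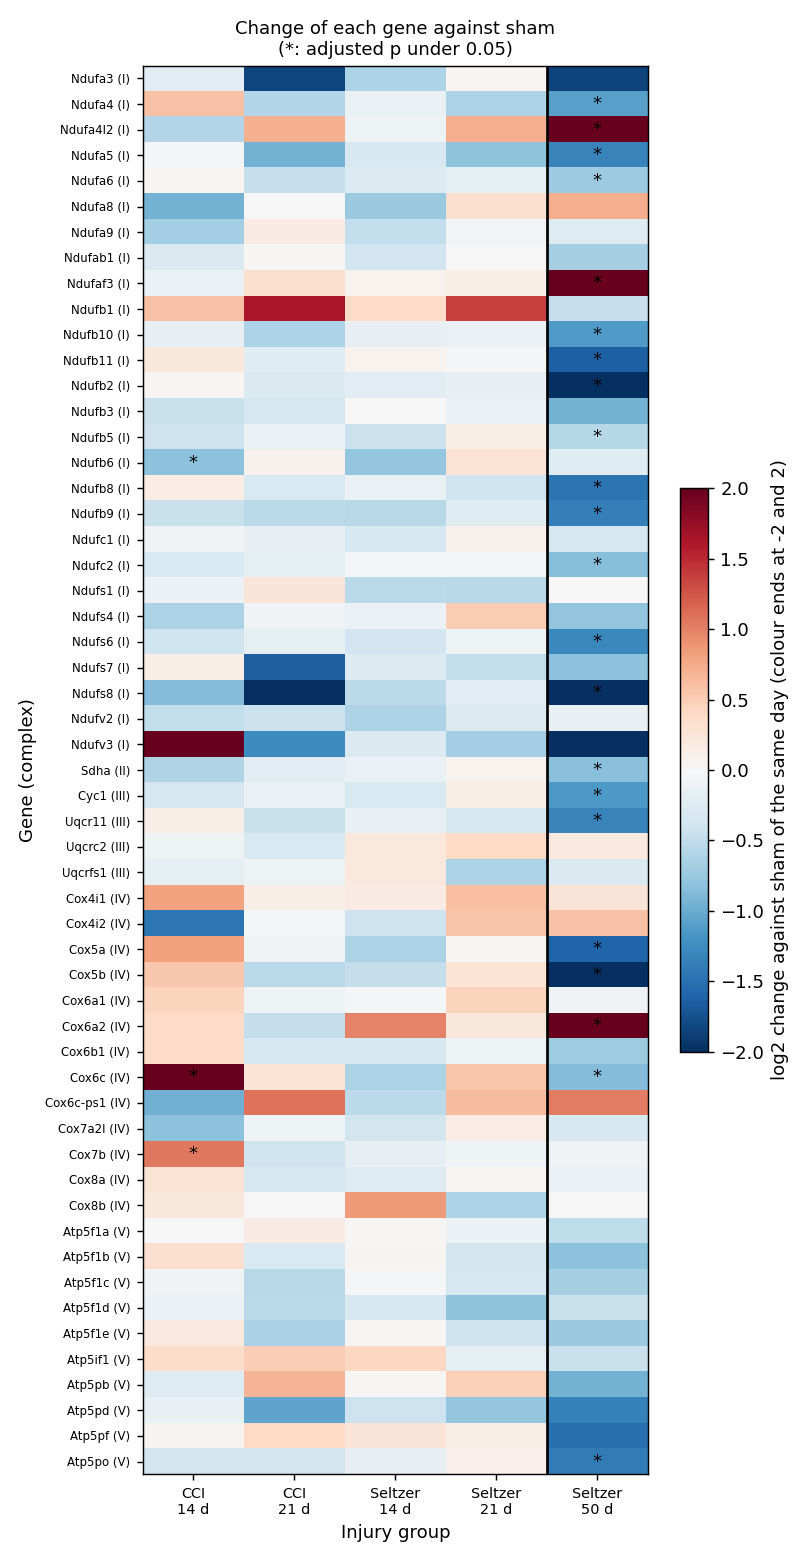
Log2 change against sham of the same day (colour, red higher and blue lower, ending at -2 and 2) for the 55 genes in rows, with their complex in brackets, and the 5 injury groups in columns. Asterisks mark adjusted p under 0.05. The 3 calls at 14 days are Ndufb6, Cox6c and Cox7b, there are none at 21 days, and the Seltzer 50-day column, set apart by a line, has 22.

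Genes of the neighbouring pathways mostly did not pass either. Of the citric acid cycle 7 genes were measured, of pyruvate entry 11, of fatty acid oxidation 17 and of the inner membrane carriers 11, and none was called at 14 or 21 days in either model. Their medians lay between -0.22 and 0.22. Of 14 glycolytic genes, Eno1 (0.69, adjusted p = 0.0179) and the muscle form Eno3 (2.61, adjusted p = 0.00351) were higher in CCI at 14 days, with Eno3 above background on 2 arrays in all. Of 7 assembly and import genes, the chaperonin gene Hspe1 was lower in CCI at 14 days (-1.35, adjusted p = 0.0013), and in sham it was lower at 21 than at 14 days by a like amount (-1.49, adjusted p = 0.00058). Of 4 biogenesis genes, Prkaa2, a subunit of AMP-activated kinase, was called lower (-1.99, adjusted p = 0.0207) but was above background on no array.

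Of 9 antioxidant genes, 1 rose and 1 fell in CCI at 14 days. Sod1, copper-zinc superoxide dismutase, rose by 2.22 (SE 0.24, adjusted p = 0.000132). It was also among the 62 probe sets lowest in sham and Seltzer at 14 days, and in sham it was 2.56 higher at 21 than at 14 days (adjusted p = 3.82e-05). Cat, catalase, fell, with a change of -1.69 (adjusted p = 0.0402), and in sham it was also lower at 21 than at 14 days (-1.90, adjusted p = 0.0199). Gpx4, which reduces lipid hydroperoxides, was lower at 21 days in CCI (-0.87, adjusted p = 0.00136) and in Seltzer (-0.90, adjusted p = 0.0037), which share their sham arrays. Gpx4 too differed between the sham groups, being 0.75 higher at 21 than at 14 days (adjusted p = 0.00478).

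The subunits of cytochrome c oxidase encoded in mitochondrial DNA were read on the same arrays. COX1, COX2 and COX3 did not pass in any comparison of the 2 models with sham at 14 or 21 days. The changes of COX3 were 0.30 and 0.62 in CCI and 0.17 and 0.59 in Seltzer (adjusted p of 0.396 or more). COX1 varied widely within groups, from 4437 to 22354 in sham at 21 days, and its changes lay between 0.04 and 0.46. COX2 had changes of -0.12 to 0.34.

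Sham ganglia differed between days as well. Between 14 and 21 days 2 members were higher at 21 days and 1 lower, beside 1.19% and 1.38% of all probe sets. These were Cox6c (2.56, SE 0.20, adjusted p = 6.25e-06), Cox7b (2.34-fold higher, adjusted p = 0.0147) and Ndufb6 (1.91-fold lower, adjusted p = 0.0104). They are the genes called in CCI at 14 days, and both comparisons use the same 14-day sham arrays, so that the values are not independent. From 21 to 50 days 4 members were higher and 5 lower, beside 2.64% and 4.82%. Cox6c was 2.29-fold higher at 50 days (adjusted p = 0.00241), with Ndufb6, Ndufc2 and Atp5po also called higher. Atp5f1b was 2.34-fold lower (adjusted p = 0.00698), with Atp5f1c, Ndufa5, Ndufv2 and Cox6a2 also called lower. With single arrays left out, the calls of Atp5po and Ndufa5 were each lost in 14 of 20 fits, that of Cox6a2 in 7 and that of Ndufb6 in 4, while that of Cox6c was kept in all 20. With means over probe sets, Atp5po turned to -1.40. Without either sham 50-day array 1 or 2 members passed, and without CCI 21-day replicate 1, 19 did. Other genes and RNA quality moved between these sham groups too. Of the 20 muscle markers, Cox6a2 among them, 7 were called lower at 50 than at 21 days (sums of 2802 to 3000 against 6983 to 7733), as were 2 of 7 Schwann cell and myelin markers, Mbp (-2.88) and Pllp (-1.30). The GAPDH ratio was 2.84 and 2.85 at 50 days against 0.998 to 1.32 at 21 days. Their part in the sham differences was not tested.

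Seltzer ganglia at 50 days had the most calls of any comparison with sham, on the 2 arrays of low quality. Of the 55 genes 19 were lower and 3 higher, beside 7.2% and 8.72% of all probe sets. The median change was -0.73 over the members and -0.22 over the 1712 brighter probe sets. Complex I had 12 genes lower, complex II 1, complex III 2, complex IV 3 and complex V 1. Uqcr11 read 440.1 and 495 against 1198 and 1217 in sham, at least 1.78-fold lower (adjusted p = 2.46e-05). Cox5b, a subunit facing the matrix, read 166 and 341 against 1491 and 1496, at least 2.20-fold lower (adjusted p = 0.000253). Atp5po read 2034 and 1929 against 5239 and 5216, 2.64-fold lower (adjusted p = 0.00271).

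The other genes called lower in Seltzer at 50 days were Ndufa4, Ndufa5, Ndufa6, Ndufb2, Ndufb5, Ndufb8, Ndufb9, Ndufb10, Ndufb11, Ndufc2, Ndufs6 and Ndufs8 of complex I, Sdha, Cyc1, Cox5a and Cox6c. With single arrays left out, the Ndufb5 call was lost in 12 of 20 fits, and those of 9 of these other genes and of Ndufa4l2 in 1 to 3, each time without an array of 50 days. Ndufb11 turned to 0.39 with means over its probe sets. Those called higher were Ndufaf3, Cox6a2 and Ndufa4l2. Ndufaf3, needed to assemble complex I, read 1760.4 and 1622 against 371 and 325, 4.87-fold higher (adjusted p = 0.0032), though the mean of its probe sets gave -0.31. Cox6a2 read 969 and 583 against -39.2 and 6.39, and only the 969 of replicate 1 was above the background of its array. Ndufa4l2 was above background on no array. The share of genes above background, the GAPDH ratio and the muscle sum (6829 to 9372 against 2802 to 3000 in sham, with 9 of 20 markers called higher) all differed between these groups, and their part in the result was not tested. Without either sham 50-day array 11 or 13 members passed.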

How the data were processed

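Total RNA of ipsilateral dorsal root ganglia was measured on 20 Affymetrix arrays in 8 groups. The deposited values are linear intensities for 8799 probe sets, as the authors submitted them. The software, background correction and scaling behind them were not given in the sources used here, and 28.9% of the values are below 0, so that dim probe sets carry little information. No test used the 59 control probe sets. Of the other 8740, 7006 have 1 gene symbol in the probe table, 308 have several and 1426 have none, and 6985 of the single symbols are in RefSeq.

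Negative intensities were set to 0, 16 was added and log2 taken. limma 3.58.1 (R 4.3.3) fitted 8 group means over all 20 arrays, with Benjamini-Hochberg adjustment over 8740 probe sets and a threshold of 0.05. A fold is the ratio of geometric means, given only where all arrays of both groups were above background. It is "at least" against the background level where the dimmer group was above it on no array. The precision is limited by the 2 or 3 arrays of a group. Data were simulated for CCI against sham at 14 days over 8740 probe sets. Changes were put in probe sets drawn at random, and the fit recovered 8% of those of log2 size 1 and 41% of size 2. Of all probe sets, 8.92% to 25.8% were above background on an array. The members are mostly brighter, so these rates do not measure recovery among them.

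The members and gene lists were chosen with earlier results of these data known. The genes named are those past the threshold in any comparison, per complex the 3 with the highest mean and the 2 with the largest mean absolute change at 14 and 21 days among those above background on at least 10 arrays, the isoform pairs, Atp5if1, and the genes of the pathway lists past the threshold. Motifs were searched in windows of 250 bases before to 50 after each start (Python 3.11.15). Same-numbered Seltzer and sham arrays at 21 days deviated together (r = 0.30, 0.23 and 0.11), so these numbers were treated as a possible pairing, which correlations this small do not establish. No other pair of groups with 3 shared numbers had all correlations over 0.1, but those of CCI and sham at 21 days were all positive too (0.06, 0.09 and 0.09). The main fit does not use the possible pairing of Seltzer and sham, and only the fits with the replicate block do. For CCI, the labels give the replicate number as a lot. Alternatives were other added numbers, quantile normalization, median centring, a filter on dim probe sets, fits on the groups compared only or without the Seltzer 50-day arrays, the replicate block, trend and robust settings, array weights, means over a gene's probe sets, the 21-day sham arrays as control at 14 days, and each array left out. Fits without the 3 replicate 1 arrays of 21 days, with values floored at 200, and with the block on the groups compared were chosen after seeing the data.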

Additional observations from a re-analysis of the deposited data

Results flagged for a closer look

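The difference between groups in the effect of injury passed the test for 3 genes. For Cox6c, the CCI effect at 21 days minus that at 14 days was -3.25 on the log2 scale (adjusted p = 1.37e-05, limma), with CCI arrays above both sham arrays in 3 of 3 at 14 days. For Cox7b the same difference was -1.45 (adjusted p = 0.0396), with 3 of 3 CCI arrays above sham at 14 days. Averaged over both days, the CCI effect minus the Seltzer effect was 1.94 for Cox6c (adjusted p = 5.54e-06), with the 3 CCI arrays above the 2 Seltzer arrays at 14 days. It was -0.51 for Uqcrc2 (adjusted p = 0.0324), with each of the 6 CCI arrays below each of the 5 Seltzer arrays.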

How the results depend on the processing

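Counts here are members past the threshold, and medians are log2 changes over the 55 genes. In CCI at 14 days (3 members) the count was 1 with median centring, the dim filter, means over probe sets or 21-day sham as control, and 9 with array weights. In CCI at 21 days (0) it was 1 with 64 added, quantile normalization, centring, array weights, a floor of 200 or without the Seltzer 50-day arrays, and centring gave a median of -0.39. In Seltzer at 14 days (0) it was 1 with array weights and 4 with 21-day sham, and at 21 days (0) it was 1 with array weights or without the 3 replicate 1 arrays. In Seltzer at 50 days (22) it was 13 on the groups compared only, and quantile normalization and centring gave medians of -0.94 and -1.07. For the CCI mean (1) it was 5 with array weights, 0 with means over probe sets and 2 without the replicate 1 arrays, and for the Seltzer mean (0) it was 2, 4 and 2 with array weights, 21-day sham and without the replicate 1 arrays. For CCI minus Seltzer (2) it was 1 with quantile normalization, centring, the dim filter, the groups compared only, the replicate block or means over probe sets, 6 with array weights and 4 without the replicate 1 arrays. For the CCI effect between days (2) it was 1 with centring, the dim filter, means over probe sets or without the Seltzer 50-day arrays, 5 with array weights and 0 with 21-day sham, and centring gave a median of -0.49. For the Seltzer effect (0) it was 3 with 21-day sham. For sham at 21 minus 14 days (3) it was 1 with centring, the groups compared only or means over probe sets, and 7 with array weights. For sham at 50 minus 21 days (9) it was 4 with centring, 2 on the groups compared only, 23 with array weights and 18 without the replicate 1 arrays, and means over probe sets gave a median of -0.064. With each array left out in turn, the counts ran from 1 to 3 in CCI at 14 days, 0 to 1 in CCI at 21 days, 0 to 0 in Seltzer at 14 and 21 days and for the Seltzer mean, 11 to 29 in Seltzer at 50 days, 1 to 2 for the CCI mean, 1 to 3 for CCI minus Seltzer, 1 to 4 for the CCI effect and for sham at 21 minus 14 days, 1 to 19 for sham at 50 minus 21 days and 0 to 1 for the Seltzer effect. The medians ran from -0.10 to -0.07 and -0.35 to -0.14 in CCI at 14 and 21 days, and from -0.29 to -0.15, -0.14 to 0.04 and -0.77 to -0.56 in Seltzer at 14, 21 and 50 days. They ran from -0.21 to -0.12 for the CCI mean, -0.18 to -0.07 for the Seltzer mean, -0.06 to 0.02 for CCI minus Seltzer, -0.29 to -0.08 and 0.07 to 0.30 for the CCI and Seltzer effects, and -0.06 to 0.07 and 0.08 to 0.32 for the sham comparisons. Signs turned with 21-day sham in CCI at 14 days for Cox7b (-0.16), Ndufa4 (-0.25), Ndufb6 (0.11) and Sdha (0.062), in Seltzer at 14 days for Ndufb6 (0.15), and for Ndufb6 in the CCI mean (0.099) and effect (-0.019). With means over probe sets they turned for Ndufb5 in CCI at 14 days (0.51) and the CCI mean (0.25), Ndufb6 in the CCI effect (-0.17), Ndufaf3 (-0.31) and Ndufb11 (0.39) in Seltzer at 50 days, Cox5b in sham at 21 minus 14 days (-0.18), and Atp5po (-1.40) and Uqcr11 (-0.84) in sham at 50 minus 21 days. Without the replicate 1 arrays Uqcrc2 in CCI at 21 days was 0.0024. The cause of these shifts was not tested. The replicate block left the Seltzer count at 21 days at 0, with a median of -0.03. Median centring shifted the median of all probe sets by 0.12 and -0.17 in CCI at 14 and 21 days.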
